A study of Mus musculus with 3 samples.

Results

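The genes described here encode the machinery that finds, removes or bypasses DNA damage caused by ultraviolet light and oxidation, together with the kinase pair that signals stalled replication. They were chosen by symbol from a list of nucleotide excision repair, base excision repair, lesion bypass and damage checkpoint genes, by a rule that uses no measured value although earlier results of these data were known, and all 47 were matched among the 22698 Ensembl genes of the data set. The measurements are RNA-seq levels in untreated melan-a cells, a single immortalized line of pigmented mouse melanocytes that the labels place on the C57BL/6J background and describe as derived from Ink4a-ARF-/- mice. Cells were grown in serum-containing medium with a phorbol ester and cholera toxin, and 3 replicates, labelled 1, 3 and 4, were sequenced. No irradiated, treated or control group belongs to the series, so the genes are described in cells with no damage applied. The labels do not say whether the replicates came from separate cultures, and the spread between them may therefore be technical.

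In nucleotide excision repair, bulky lesions such as cyclobutane pyrimidine dimers and 6-4 photoproducts are recognised either anywhere in the genome, by the XPC complex and the UV-DDB complex, or where RNA polymerase stalls on a transcribed strand, with the help of the Cockayne syndrome proteins. Both routes hand the lesion to TFIIH, XPA and RPA, the damaged strand is cut on either side by ERCC1-XPF and XPG, and the gap is filled by PCNA-dependent polymerases and sealed by a ligase. Melanocytes are exposed both to sunlight and to the oxidative by-products of melanin synthesis, and inherited loss of nucleotide excision repair underlies xeroderma pigmentosum, in which melanoma and other skin cancers arise early.

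Values are FPKM, fragment counts scaled by gene length and library size, so that levels of different genes can be set side by side per length. The depth, recovered from the steps in which short genes take their values, corresponded to 53900000, 46900000 and 66600000 reads for replicates 1, 3 and 4 after scaling by the authors. The least covered member, Ddb2, then rested on about 150 reads in replicate 1, a counting error of 8.17%. Of 12 melanocyte marker genes, 11 reached 1 FPKM in all replicates (summed level 5822 to 6659 FPKM) and the receptor gene Kit did not, at 0.68 FPKM on average. None of 6 keratinocyte, 6 macrophage and 6 endothelial markers reached 1 FPKM in all replicates (summed levels 0.36 to 0.7, 0.9 to 1.74 and 0.04 to 0.06 FPKM), with Krt1, Trp63, Dsg3, Ptprc, Itgam, Tek and Tie1 at 0 throughout, and among 6 fibroblast markers Col1a1 alone did (sum 1.61 to 1.95 FPKM), with Lum at 0. Of 6 Schwann cell markers 4 did (sum 365 to 455 FPKM), most of it from the myelin gene Pmp22, and their part in the levels below was not tested. Cdkn2a, the gene of the Ink4a-ARF locus, was measured at 19.24, 16.49 and 24.32 FPKM in replicates 1, 3 and 4, and a level summed over the gene does not show which of its exons remain.

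Every repair gene was transcribed. All 47 were above 0 in all 3 replicates, against 60.1% of all genes, 46 (97.9%) reached 1 FPKM in all 3, against 44.1%, and 19 (40.4%) reached 10 FPKM in all 3, against 21.7%. The exception at 1 FPKM was Ercc8, at 0.91 FPKM in replicate 3. Mean levels ran from 1.05 FPKM for Ercc8 to 193 FPKM for Ddb1, a span of 185-fold, with a median of 10.1 FPKM and quartiles at 5.19 and 23.0 FPKM. That median lay above the means of 76.6% of all genes but only 46.9% of the 10011 genes that reached 1 FPKM in all replicates, whose median was 11.2 FPKM. The middle of the list thus lay slightly below that of active genes, and 3 members, Ddb1, Rad23b and Pcna, stood among the 1000 highest genes at ranks 261, 666 and 948. In bulk RNA, fewer cells with a transcript and less of it per cell cannot be told apart.

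**Figure D1:**
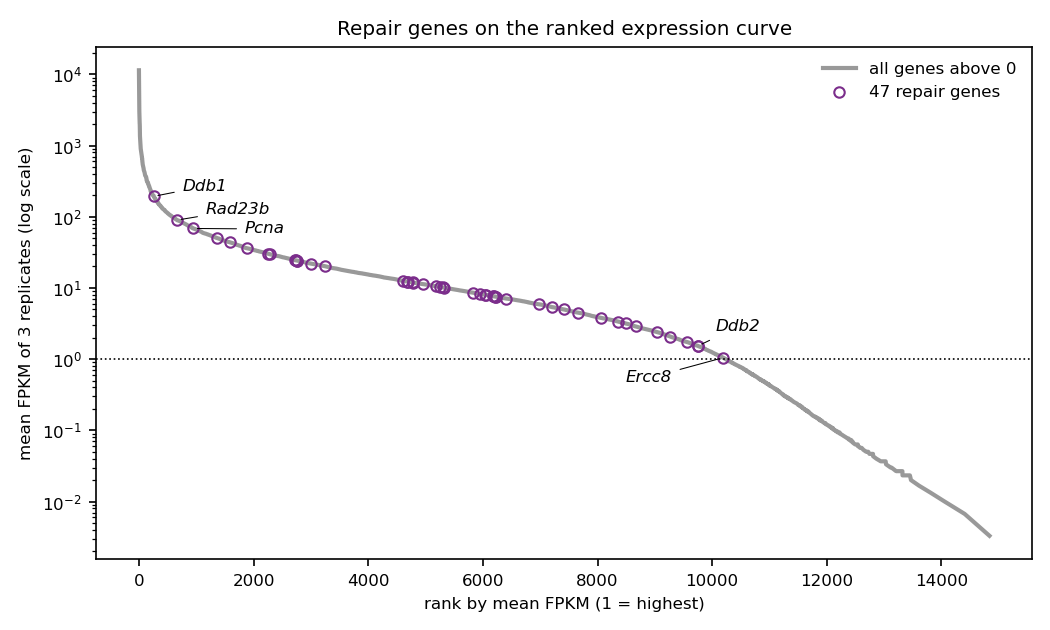
Mean FPKM of the 3 replicates (log scale) against rank for all genes above 0 (grey line) and the 47 repair genes (open circles); the dotted line marks 1 FPKM. Ddb1, Rad23b and Pcna sit on the steep left part at ranks 261, 666 and 948, and Ercc8 has the lowest mean, 1.05 FPKM.

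When the members were ordered by mean level, 10 of the 46 neighbouring pairs had replicate ranges that did not overlap and 36 had ranges that did. The order was resolved at the top, where Ddb1, Rad23b, Pcna and Gtf2h1 followed each other without overlap. It was not resolved at the bottom, where the range of Ercc8 lay below that of Mutyh but overlapped that of Ddb2. Between Rbx1, at 19.87 to 20.53 FPKM, and Ogg1, at 11.92 to 13.87 FPKM, no other member was found. This gap depends on the gene length assumed. With the longest annotated transcript as length, Rpa2 (mean 19.64 FPKM), Pold1 (17.03), Rpa3 (16.99) and Rfc3 (16.31) lay between Rbx1 (20.15) and Ogg1 (15.99). Over all 1081 pairs of members, not only neighbours, 927 had ranges apart.

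By step, the median of the mean levels was highest for ligation, at 24.5 FPKM (SD 1.80 between the medians of the 3 replicates), followed by the CRL4 ubiquitin ligase at 20.1 (SD 0.34) and base excision at 18.4 (SD 0.93). Gap filling and global damage recognition, at 11.3 FPKM each, and damage verification with RPA, at 11.05 FPKM, came next. The TFIIH core stood at 8.002, incision at 7.64, the CDK-activating kinase at 7.09 and lesion bypass at 5.49 FPKM. Transcription-coupled recognition, at 1.96 FPKM (SD 0.66), and the checkpoint kinases, at 1.91 FPKM (SD 0.68), were lowest. Each step holds 2 to 8 genes, so that its median can rest on a single member. The order of the steps also depends on the gene length assumed. With the longest transcript as length, the middle members of the TFIIH core, Gtf2h2 and Gtf2h4, averaged 14.32 and 15.83 FPKM. Cetn2, the middle member of global damage recognition, then averaged 14.44 FPKM.

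**Figure D2:**
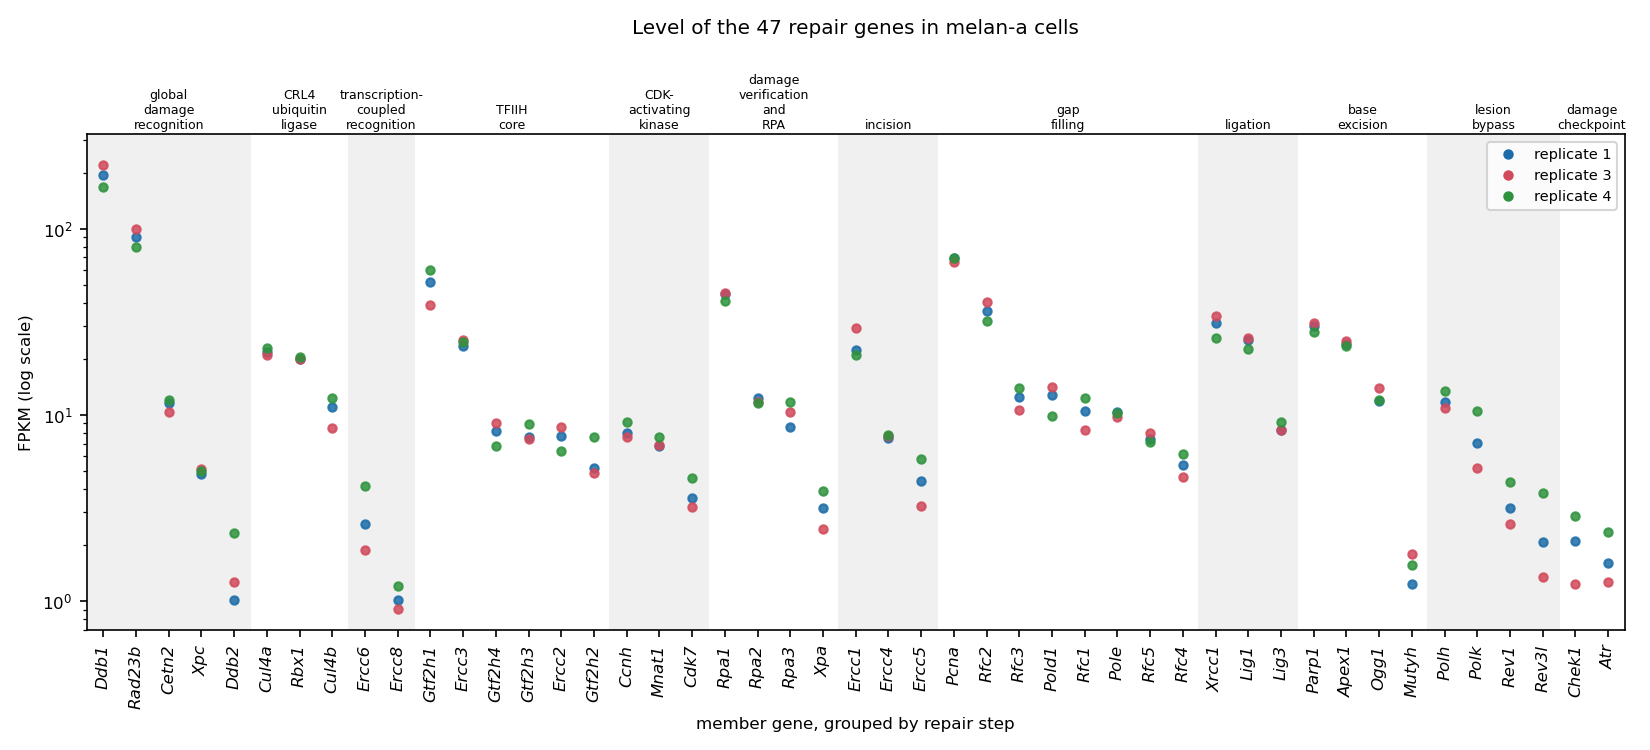
FPKM (log scale) of each repair gene in replicates 1, 3 and 4, with genes grouped by repair step and sorted by mean within a step. Global damage recognition spans from Ddb1, at 167.47 to 218.63 FPKM, to Ddb2, at 1.02 to 2.31 FPKM.

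Global damage recognition held the widest span of any step. Ddb1 (ENSMUSG00000024740, chr19:10680058-10704306, + strand, mm9) encodes the large subunit of UV-DDB and is also the adaptor of all CRL4 ubiquitin ligases, and it stood at 194.25, 218.63 and 167.47 FPKM in replicates 1, 3 and 4. Ddb2 (ENSMUSG00000002109, chr2:91051729-91077139, - strand) encodes the subunit that binds the photolesion, mutated in xeroderma pigmentosum group E, and it stood at 1.02, 1.27 and 2.31 FPKM. Ddb1 was higher in every replicate, by 190.4-, 172.1- and 72.5-fold, a mean log2 ratio of 7.06 ± 0.77 (SD, n = 3). The ratio was lowest in replicate 4, in which Ddb2 was highest and Ddb1 lowest. A gene on the opposite strand covers 23.8% of the exon bases of Ddb2, and whether reads were counted by strand is not given in the sources used here.

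Xpc encodes the damage sensor that binds the distorted helix, and its level hardly varied, at 4.83, 5.10 and 5.02 FPKM. It exceeded Ddb2 by 4.735-, 4.016- and 2.173-fold in replicates 1, 3 and 4 (log2 1.79 ± 0.59, SD, n = 3). Rad23b encodes the partner that stabilises XPC, and was far more abundant, at 90.36, 99.29 and 79.53 FPKM. The ratio of Rad23b to Xpc was 18.71, 19.47 and 15.84 (log2 4.16 ± 0.16). A near-identical copy elsewhere in the genome covers 19.8% of the Rad23b transcript at 97.8% identity. Cetn2, the centrin that completes the complex, averaged 11.3 FPKM. The subunits of both recognition complexes were therefore unequal at the RNA level, with the lesion-contacting Xpc and Ddb2 below their partners.

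The CRL4 ligase carries DDB2 and CSA as exchangeable receptors. Its scaffold Cul4a stood at 21.80, 21.07 and 22.82 FPKM and its paralogue Cul4b, on the X chromosome, at 10.99, 8.51 and 12.27 FPKM. Cul4a was higher in all 3 replicates, with a ratio of 1.984, 2.476 and 1.86 (log2 1.06 ± 0.22), and of 3.193 on average with the longest transcript as length. The RING subunit Rbx1 averaged 20.1 ± 0.34 FPKM (SD, n = 3), close to Cul4a, although their ranges did not overlap. That closeness depends on the gene length assumed. With the longest transcript as length, Cul4a averaged 37.64 and Rbx1 20.15 FPKM. A near-identical copy covers 32.9% of the Rbx1 transcript at 98.7% identity.

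The members of transcription-coupled recognition had the lowest median of the nucleotide excision repair steps. Ercc6 encodes CSB, the ATPase that engages stalled RNA polymerase, and was measured at 2.59, 1.88 and 4.16 FPKM. Ercc8 (ENSMUSG00000021694, chr13:108948925-108985558, + strand, mm9) encodes CSA, the CRL4 receptor of this branch, and had the lowest mean of the members, at 1.02, 0.91 and 1.21 FPKM. The ratio of Ercc6 to Ercc8 was 2.539, 2.066 and 3.438 (log2 1.39 ± 0.37). Both this ratio and the place of Ercc8 depend on the gene length assumed. With the length of the longest annotated transcript of each gene in place of the joined exons the ratio fell to 1.083 and was above 1 in 2 of 3 replicates. The mean of Ercc8 was then 2.53 FPKM, above Mutyh at 1.95, Atr at 1.84 and Ddb2 at 1.83 FPKM. Of the genes of this branch outside the members, Uvssa stood at 0.71, 0.51 and 1.72 FPKM, whereas Xab2, an XPA-binding protein, stood at 15.91, 17.29 and 16.21 FPKM.

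Within the TFIIH core, Gtf2h1 stood apart from the other subunits, at 51.87, 39.08 and 59.95 FPKM, and the remaining 5 averaged between 5.88 and 24.4 FPKM. The helicase Ercc3 (XPB), which opens DNA at promoters and lesions, stood at 23.41, 25.08 and 24.65 FPKM, and the helicase Ercc2 (XPD), which verifies the lesion, at 7.73, 8.58 and 6.37 FPKM. Ercc2 was at 0.3302, 0.3421 and 0.2584 times the level of Ercc3 in replicates 1, 3 and 4 (log2 -1.70 ± 0.22). A gene on the opposite strand covers 42.4% of the exon bases of Ercc2. Gtf2h2, a regulator of the XPD helicase, stood at 5.19, 4.86 and 7.60 FPKM and was highest in replicate 4, and Gtf2h3 and Gtf2h4 averaged 7.98 and 8.02 FPKM.

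The CDK-activating kinase joins the TFIIH core in transcription and leaves it during repair. Its catalytic subunit Cdk7 stood at 3.59, 3.20 and 4.59 FPKM, and its cyclin Ccnh at 8.03, 7.62 and 9.20 FPKM. Cdk7 was at 0.4471, 0.4199 and 0.4989 times Ccnh (log2 -1.14 ± 0.13), and the assembly factor Mnat1 averaged 7.09 FPKM.

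Xpa, the scaffold that positions the incision complex, was among the lower members at 3.18, 2.43 and 3.89 FPKM. The 3 subunits of RPA, the single-strand binding protein used in replication and repair, were unequal. Rpa1, the large subunit, stood at 44.65, 45.04 and 40.94 FPKM, Rpa2 at 12.39, 11.79 and 11.51 FPKM, and Rpa3, the smallest subunit, at 8.56, 10.39 and 11.65 FPKM. Rpa2 was at 0.2733 and Rpa3 at 0.2326 times Rpa1 (log2 -1.87 ± 0.05 and -2.10 ± 0.29), and with the longest transcript as length these ratios were 0.4107 and 0.3526, still below 1 in every replicate. A near-identical copy elsewhere in the genome covers 94.9% of the Rpa3 transcript at 95.4% identity, so the reads of Rpa3 may be split or lost.

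Of the nucleases, Ercc1 and Ercc4 (XPF) form the obligate pair that cuts 5′ of the lesion, and Ercc5 (XPG) cuts 3′ of it. Ercc1 stood at 22.25, 29.30 and 21.08 FPKM and its catalytic partner Ercc4 at 7.51, 7.66 and 7.76 FPKM, which made Ercc4 the member with the smallest coefficient of variation, 1.65%. Ercc1 was higher in all 3 replicates, by 2.963-, 3.825- and 2.716-fold (log2 1.65 ± 0.26), and by 5.405-fold on average with the longest transcript as length. Ercc5 stood at 4.41, 3.23 and 5.81 FPKM, at 0.5872, 0.4217 and 0.7487 times Ercc4 (log2 -0.81 ± 0.42).

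**Figure D3:**
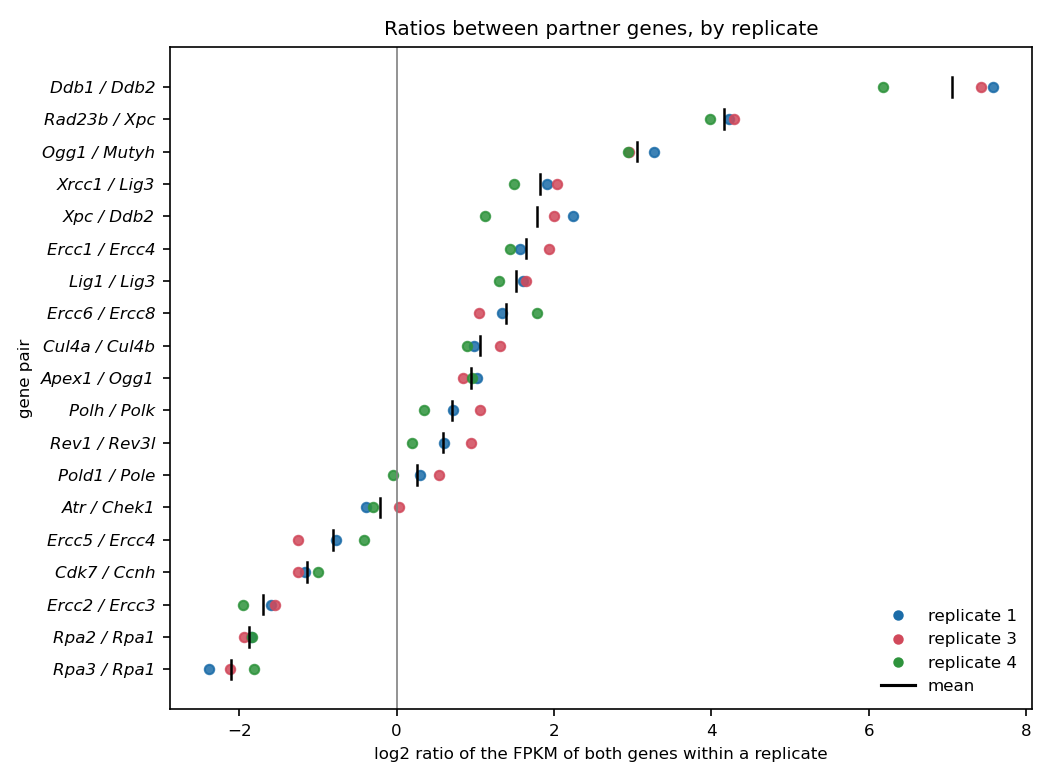
log2 ratio of the FPKM of 2 repair genes within each replicate (points) with the mean (black bar), for 19 pairs; the vertical line marks equal levels. Ddb1 over Ddb2 is the widest at 7.06, and only Pold1 over Pole and Atr over Chek1 have replicates on both sides of 0.

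Gap filling was led by Pcna, the sliding clamp, at 69.85, 66.00 and 69.41 FPKM, with the smallest spread of the 5 highest members (highest over lowest replicate 1.06). A near-identical copy covers 82.8% of the Pcna transcript at 99.3% identity. The clamp loader subunits Rfc1 to Rfc5 averaged between 5.39 FPKM for Rfc4 and 36.2 FPKM for Rfc2, and Rfc5, at 7.54 FPKM, has 2 near-identical copies. The catalytic subunits of the replicative polymerases were close to each other, Pold1 at 12.74, 14.15 and 9.85 FPKM and Pole at 10.38, 9.75 and 10.19 FPKM. Their ranges overlapped and Pold1 was higher in 2 of 3 replicates (log2 0.26 ± 0.29, exact sign-flip p = 0.5).

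Lig1, the replicative ligase, stood at 25.20, 25.85 and 22.46 FPKM, and Lig3, which seals nicks in short-patch and mitochondrial repair, at 8.28, 8.29 and 9.12 FPKM. Lig1 exceeded Lig3 by 3.043-, 3.118- and 2.463-fold (log2 1.52 ± 0.19). Xrcc1, the scaffold that binds LIG3 protein, stood at 31.18, 34.09 and 25.73 FPKM and exceeded Lig3 by 3.766-, 4.112- and 2.821-fold (log2 1.82 ± 0.28). An opposite-strand gene covers 25.1% of the exon bases of Lig3.

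Base excision repair handles 8-oxoguanine, the main oxidised base. Ogg1, the glycosylase that excises it, stood at 11.92, 13.87 and 11.97 FPKM, whereas Mutyh, which removes the adenine mispaired with it, was among the lowest members, at 1.24, 1.79 and 1.56 FPKM. Ogg1 exceeded Mutyh by 9.613-, 7.749- and 7.673-fold (log2 3.05 ± 0.18). Apex1, the endonuclease that cuts the abasic site left by both, stood at 24.12, 24.98 and 23.35 FPKM, 2.023, 1.801 and 1.951 times Ogg1 (log2 0.94 ± 0.09). An opposite-strand gene covers 61.7% of the exon bases of Apex1, the largest share among the members. Parp1, the nick sensor, averaged 29.7 ± 1.59 FPKM (SD, n = 3).

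Of the polymerases that copy past lesions, Polh, which bypasses cyclobutane dimers accurately and is lost in the variant form of xeroderma pigmentosum, was the highest, at 11.66, 10.83 and 13.45 FPKM. Polk stood at 7.09, 5.19 and 10.55 FPKM, and Polh exceeded it by 1.645-, 2.087- and 1.275-fold (log2 0.71 ± 0.36). Rev1, the scaffold of the bypass polymerases, stood at 3.17, 2.60 and 4.36 FPKM and Rev3l, the catalytic subunit of polymerase zeta, at 2.08, 1.35 and 3.79 FPKM. Rev1 was higher within each replicate (log2 0.59 ± 0.37), but the ranges of the pair overlapped, and with the longest transcript as length Rev1 was higher in 2 of 3. An opposite-strand gene covers 29.1% of the exon bases of Rev1. All lesion bypass members were highest in replicate 4 and lowest in replicate 3. That order was seen in 21 of the 46 members expressed in all replicates and in 37.4% of all expressed genes.

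The checkpoint kinase Atr, which is activated by RPA-coated single strands, stood at 1.61, 1.27 and 2.35 FPKM and its effector Chek1 at 2.10, 1.24 and 2.88 FPKM. Their ranges overlapped and Atr was higher in 1 of 3 replicates (log2 -0.21 ± 0.22, exact sign-flip p = 0.5). Of all 19 pairs compared, 17 had the same direction in every replicate, each with p = 0.25 in the exact two-sided sign-flip permutation test, which is the smallest p that 3 replicates allow, so that no pair could pass 0.05 with or without adjustment over the 19. Replicate ranges were apart in 16 of the 19, beside 927 of all 1081 pairs of members, so the chosen pairs did not stand out in this.

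Of 45 repair and checkpoint genes outside the 47, 41 reached 1 FPKM in all replicates, as did all 18 p53-related and proliferation genes listed. They were 9 of 10 further nucleotide excision genes (median 17.1 FPKM, from Uvssa at 0.98 to the polymerase delta subunit Pold4 at 57.1), 14 of 16 further base excision genes (median 3.96 FPKM, beside 18.4 for the members of that step, with the glycosylase genes Neil2 and Mbd4 falling under 1 FPKM), 8 of 8 further lesion bypass genes (median 12.4 FPKM, beside 5.49 for the members), 10 of 11 further checkpoint genes (median 6.21 FPKM), 8 of 8 genes of p53 and its damage targets (median 28.2 FPKM) and 10 of 10 proliferation genes (median 33.4 FPKM). Trp53 itself stood at 83.11, 90.53 and 85.32 FPKM and its target Cdkn1a, a CDK inhibitor, at 314.15, 381.84 and 273.09 FPKM, while the ubiquitin ligase gene Mdm2 stood at 32.73, 27.46 and 42.59 FPKM. Ddb2, also known as a p53 target in human cells, was at 1.02 to 2.31 FPKM in the same libraries.

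Promoter windows from 250 bases before to 50 bases after the RefSeq start sites (GRCm38.p6) were found for 40 of the 47 members, 44 windows in all; Ccnh, Ercc3, Rev3l, Rfc2, Ddb2, Pole and Xpc had none. The windows were rich in GC and CpG, with medians of 63.2% and 23 CpG, against 61.3% and 21 for windows of expressed genes and 52.7% and 7 for all windows. Of 10 motifs searched on both strands, the TFAP2, E-box and M-box patterns belong to the factors that the study is about, TFAP2A and MITF. The TFAP2 pattern GCCNNNGGC was found in 13 members (29.5% of windows, against 26.1% for expressed genes and 16.6% for all), and the E-box CACGTG, a pattern bound by MITF and by many other basic helix-loop-helix proteins, in 11 (25%, against 10.5% and 7.15%). The M-box TCATGTG was found in 1 member, Mnat1 (2.27%, against 2.01% and 3.77%). The E-box was found in Apex1, Gtf2h1, Rpa1, Parp1, Lig1, Lig3, Rfc1, Cdk7, Rev1, Ercc6 and Ercc8, which are high and low members alike. The SP1 pattern GGGCGG, which can overlap TFAP2 matches, was found in 29 members (68.2% of windows, against 65.6% for expressed genes) and CCAAT in 20 (47.7%, against 37.8%). The E2F patterns TTTCGCGC and TTTGGCGC were found in 2 and 0 members (4.55% and 0%, against 0.713% and 1.05% for expressed genes), the NRF1 palindrome in 2 (4.55%, against 2.28%), and the CRE TGACGTCA in 0 and its core TGACGT, contained in it, in 5 (11.4%, against 12.0%). A match is a description of the letters and not evidence of binding.

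The windows of 4 members are shown, those of the members with the highest and the lowest mean, Ddb1 and Ercc8, and those of Gtf2h1 and Apex1, which hold 2 and 3 E-boxes. Capitals mark matches to the TFAP2, E-box and M-box patterns.
Ddb1 promoter, chr19:10605347-10605646, + strand: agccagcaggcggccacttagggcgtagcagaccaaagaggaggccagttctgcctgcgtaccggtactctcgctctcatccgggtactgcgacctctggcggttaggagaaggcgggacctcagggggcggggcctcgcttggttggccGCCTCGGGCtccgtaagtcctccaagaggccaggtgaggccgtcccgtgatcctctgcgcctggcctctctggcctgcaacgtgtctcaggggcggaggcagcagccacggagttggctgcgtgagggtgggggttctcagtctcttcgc
Ercc8 promoter, chr13:108158488-108158787, + strand: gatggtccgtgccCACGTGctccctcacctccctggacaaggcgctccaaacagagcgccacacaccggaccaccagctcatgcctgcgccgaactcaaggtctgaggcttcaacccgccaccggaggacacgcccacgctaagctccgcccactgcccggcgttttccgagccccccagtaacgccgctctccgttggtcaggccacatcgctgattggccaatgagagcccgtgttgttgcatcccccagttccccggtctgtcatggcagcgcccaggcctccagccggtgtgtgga
Gtf2h1 promoter, chr7:46795844-46796143, + strand: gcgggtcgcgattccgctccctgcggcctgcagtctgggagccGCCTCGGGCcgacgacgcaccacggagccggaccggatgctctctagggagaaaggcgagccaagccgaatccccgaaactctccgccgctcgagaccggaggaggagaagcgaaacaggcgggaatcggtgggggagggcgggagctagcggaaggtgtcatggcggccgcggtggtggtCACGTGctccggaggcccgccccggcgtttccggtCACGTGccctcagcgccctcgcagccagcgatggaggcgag
Apex1 promoter, chr14:50924699-50924998, + strand: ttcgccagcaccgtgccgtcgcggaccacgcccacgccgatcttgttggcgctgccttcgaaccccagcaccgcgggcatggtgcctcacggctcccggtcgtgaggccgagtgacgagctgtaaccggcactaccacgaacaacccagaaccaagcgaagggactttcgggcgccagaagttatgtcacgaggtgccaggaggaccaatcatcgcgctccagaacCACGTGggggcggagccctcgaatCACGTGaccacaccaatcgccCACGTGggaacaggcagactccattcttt
Ddb1 holds a TFAP2 match and no E-box, Ercc8 an E-box and no TFAP2 match, Gtf2h1 both, and the 3 E-boxes of Apex1 lie near its start site.

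Levels agreed closely in rank between replicates. Spearman's rho over all 47 members was 0.99 between replicates 1 and 3, 0.98 between 1 and 4 and 0.96 between 3 and 4. This is a description over genes that share their libraries. The SD of the log2 ratio over members was 0.27, 0.31 and 0.49 for the same pairs, against 0.23, 0.28 and 0.46 over the 10011 expressed genes. Replicates 3 and 4 were thus the farthest apart, for repair genes as for all genes.

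The highest replicate was at least 1.5 times the lowest for 11 of 46 members, a share of 23.9% beside 18.9% of all expressed genes. These were Rev3l (2.81), Chek1 (2.32), Ddb2 (2.27), Ercc6 (2.21), Polk (2.03), Atr (1.85), Ercc5 (1.80), Rev1 (1.68), Xpa (1.601), Gtf2h2 (1.56) and Gtf2h1 (1.53), where the values are the highest over the lowest replicate. The first 5 (10.9%) also passed a ratio of 2, against 3.3% of expressed genes. All but Ddb2 were lowest in replicate 3 and highest in replicate 4, an order with that ratio seen in 21.7% of members and 12.1% of expressed genes, and all but Gtf2h1 had means below 10 FPKM, as did 22 of the 46. Without replicate 4 the count past 1.5 was 2, beside 2.17% of expressed genes, without replicate 3 it was 3, beside 4.01%, and without replicate 1 it was 11, beside 18.6%, so that the count fell for repair genes as it did for all genes. The members involved belong to several steps, with 3 of 4 lesion bypass genes and both checkpoint kinases. None belongs to gap filling, ligation, base excision, CRL4 or the CDK-activating kinase, but most of these steps had members near the cutoff. Rfc1 reached 1.497, Mutyh 1.444, Cul4b 1.442, Pold1 1.437 and Cdk7 1.434, beside 1.53 for Gtf2h1. The split by step therefore depends on the cutoff.

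The difference between replicates 3 and 4 followed the base composition of the genes. Over the 46 members, Spearman's rho of the log2 ratio of replicate 3 to replicate 4 with the GC content of the joined exons was 0.77, and over 10007 expressed genes it was 0.78; with exon length it was -0.22 over the members. All 16 members of at least 50% GC were higher in replicate 3 (median log2 ratio 0.21), against 82.9% of expressed genes in that range. Of 16 members under 45% GC, 15 were higher in replicate 4 (median -0.47), against 93.5%, and of 15 members from 45% to 50% GC, 14 were (median -0.27), against 70.2%. These ranges hold all 47 members, so the lowest includes Ercc8, which is not among the expressed genes. Rad23b, at 42.3% GC and higher in replicate 3, was the exception in the lowest range. All 11 members past 1.5 had less than 50% GC, a range that holds most members. The same share over the expressed genes past 1.5 is not given here.

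**Figure D4:**
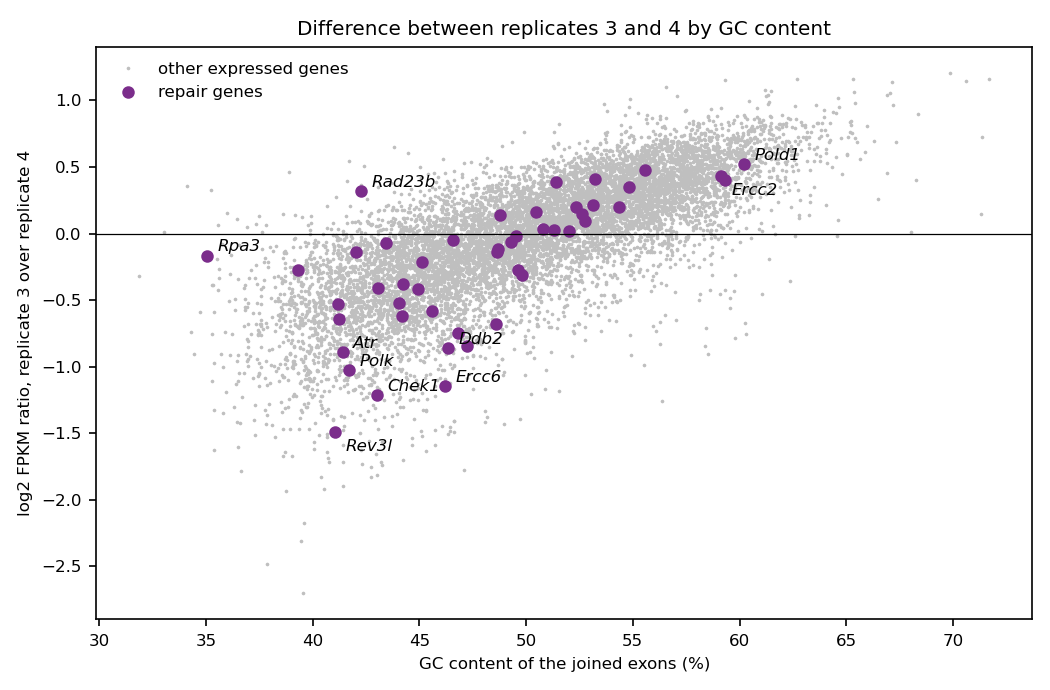
log2 ratio of FPKM in replicate 3 over replicate 4 against GC content of the joined exons, for the repair genes (large points) and the other expressed genes (small grey points). The members of at least 50% GC lie above 0 with a median of 0.21, those under 45% GC have a median of -0.47, and Rad23b and Rpa3 lie above the trend.

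When the trend with GC content was removed from every replicate, 8 members (17.4%) were past 1.5, against 5.72% of expressed genes. Chek1, Ddb2, Ercc5, Ercc6, Rev3l and Xpa were past it both ways, with Ddb2 at 2.08, Rev3l at 1.92 and Ercc6 at 1.90 after removal. Atr, Gtf2h1, Gtf2h2, Polk and Rev1 were past it only as deposited. Rad23b (1.77) and Rpa3 (1.57) were past it only after removal, and both have low GC content, at 42.3% and 35.0%. The cause of the differences that remained was not tested.

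**Figure D5:**
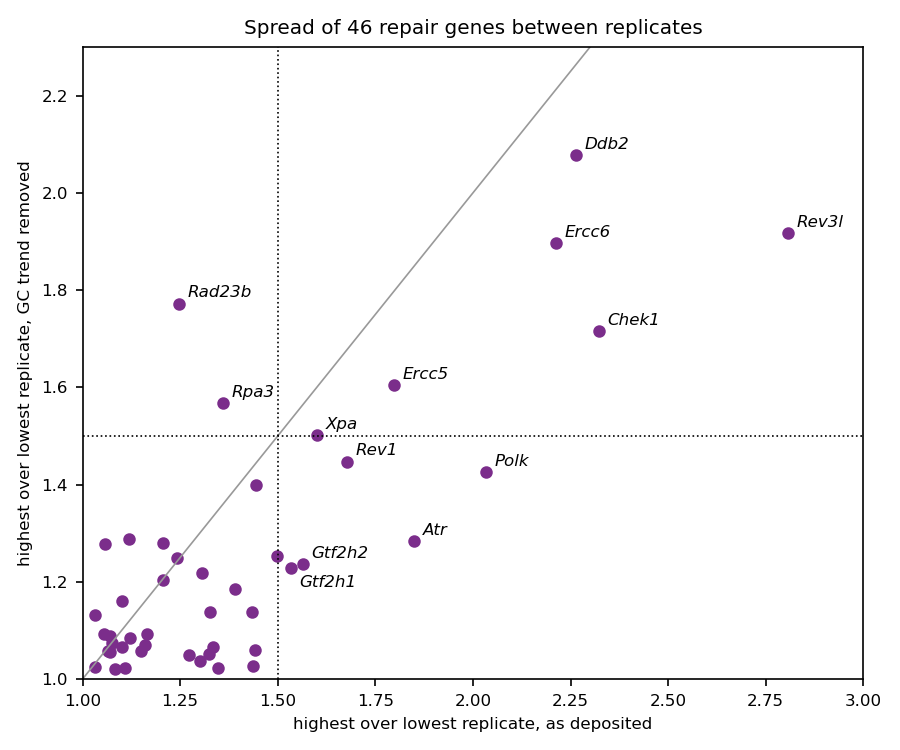
Highest over lowest replicate of 46 repair genes as deposited (horizontal) and with the GC trend removed (vertical); dotted lines mark 1.5 and the grey line equal values. Ddb2, Rev3l, Ercc6, Chek1, Ercc5 and Xpa lie past 1.5 on both axes, and Rad23b and Rpa3 on the vertical axis only.

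Of the 10 proliferation genes listed, Mki67, which marks cycling cells, had the largest ratio of highest to lowest replicate, 2.66. It stood at 24.89, 14.08 and 37.40 FPKM in replicates 1, 3 and 4, and its GC content was 46.6%. Top2a, Ccna2, Ccnb1, Cdk1 and Rrm2, at 41.8% to 48.1% GC, were also lowest in replicate 3 and highest in replicate 4. The replication licensing gene Mcm2, at 55.5% GC, had the opposite order, at 49.49, 54.57 and 38.04 FPKM. Mcm5 (52.4% GC) and Tyms (46.1%) shared that opposite order, and Mcm3 (52.6%) was also lowest in replicate 4. The part of these proliferation genes in the spread of the repair genes was not tested.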

How the data were processed

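RNA-seq libraries of 3 melan-a replicates were made with a stranded mRNA kit. Per the methods and the submitters' processing notes, the authors trimmed 10 bases from each read, aligned with STAR 2.3.0e to mm9, counted with HTSeq 0.5.3p3 on Ensembl 67 and deposited TMM-scaled FPKM values with 2 decimals. The conversion to FPKM and the strand setting are not given in the sources used here. The deposited values hold no raw counts, and no count test was run. Symbols, positions, lengths and GC content came from an mm9 annotation of Ensembl 65, in which 374 of 22698 genes were missing. Depth was estimated from single-transcript genes of 60 to 500 bases (104 to 124 per replicate). Near-identical copies were sought with minimap2 2.31 (at least 200 bases at 95% identity). Expressed means at least 1 FPKM in all replicates. The GC trend was the median log2 ratio to the replicate mean in 40 bins. Members were all accounted for by step. Values per replicate were given for members of the 19 pairs, the 5 highest and 5 lowest, and those varying 1.5-fold. Members and lists were chosen with earlier results of these data known. Values of 2 further genes outside the members are not reported here. Scripts (Python 3.11.15, pandas 2.3.3, scipy 1.17.1) were tested on simulated data. Alternatives tried were other filters, scalings, pseudocounts of 1 and 0.1, another gene length, the median and each replicate left out.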

Additional observations from a re-analysis of the deposited data

How the results depend on the processing

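Of 236 values recomputed under alternative settings, 228 kept their direction, differing by less than the replicate spread where no test applied or, for counts, by less than 1.5 times. A pair ratio counted as kept if its mean kept its sign. Ercc6 over Ercc8 was thus counted although its log2 ratio fell from 1.39 to 0.115 with the longest transcript as length. Step medians were not recomputed with that length, so the 228 do not cover the order of the steps under it. The count of members varying 1.5-fold was 5 (3.3% of genes) at a ratio of 2, 1 (12.2%) at 10 FPKM in all replicates, where fewer genes are tested, and 2 to 11 (2.17% to 18.6%) with a replicate left out. It was 14 (20.1% of genes) rescaled to equal totals, 12 (18.8%) by the median of ratios and 8 (5.72%) with the GC trend removed. The member median lay above 61.0% of genes once genes at 0 in any replicate were dropped from the ranking. The base excision median was 17.4 on the log2(FPKM + 0.1) scale. Spearman's correlation of the log2 ratio of replicate 3 to replicate 4 over the members was -0.22 with length in place of GC content, opposite in sign to that with GC content. With the longest transcript as length, Ercc8 averaged 2.53 FPKM (an alternative chosen after seeing the data), Cul4a over Cul4b was 3.193 and Ercc6 over Ercc8 was 1.083, and Pold1 over Pole was above 1 and Atr over Chek1 below 1 in all 3 replicates. No paired analysis was possible because the series has a single group of samples; gene ratios were taken within each replicate. At the estimated depth, 3 reads on a 1 kb gene are 0.045 to 0.064 FPKM, beside 0.91 FPKM for the lowest value of a member. The part of depth in the spread of low members was not tested.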
